A study of Mus musculus with 27 samples.

Results

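The tumours described here had become resistant to NVP-LDE225 at 160 mg/kg/day and are set against vehicle-treated tumours. They were chosen by their labels alone: 3 RNA arrays of resistant tumours at that dose and all 8 RNA arrays of vehicle tumours, together 11 of the 21 RNA arrays and of the 27 arrays of the series. All tumours were medulloblastoma of Ptch+/-p53-/- mice. Their cells were placed under the skin of nude mice, which lack T cells, and dosing began about 10 days later. NVP-LDE225 blocks Smoothened (Smo). The resistant tumours had received it in 2 daily doses, and were taken on day 26 of treatment. Resistance was seen after 13 units of dosing, a number whose unit the labels leave out. The vehicle tumours were labelled sensitive and were harvested at 3 times, 3 of them at 4 h, 3 at 16 h and 2 at 48 h. Other RNA arrays, used for levels, for direct tests and to pick probe sets that answer the drug, held resistant tumours at 20 mg/kg/day in 2 daily doses (n = 2, day 26) and sensitive tumours given 20 mg/kg/day once a day, 3 of them for 4 h, 3 for 16 h and 2 for 48 h. RNA of vehicle tumours taken on day 26 was not analysed here, so resistance, dose, time on study and tumour age cannot be told apart in this comparison.

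Hedgehog signalling runs through Smo, which the receptor Ptch1 holds inactive. When Smo is free, the Gli transcription factors are activated, and the suppressor Sufu restrains them. Medulloblastoma of this kind arises from granule neuron progenitors of the cerebellum, which divide in answer to Hedgehog ligand, and loss of Ptch1 keeps the pathway on.

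RNA was read as probe-set signal, a brightness on a linear scale that the authors computed with the MAS5 program. Each probe set of the array reports a short stretch near the end of a transcript. No gene table used here links them to genes. For that reason probe sets are counted, 4 are named by identifier, and neither the pathway members nor the labelled tumour type could be checked through marker genes. Array means lay between 221.6 and 256.4 in resistant and between 221.4 and 239.3 in vehicle tumours. The actin control, read at the 3′ end relative to the 5′ end, is lower where RNA is more intact or labelling reached further. This ratio was 1.27 to 1.34 in resistant tumours. It was 1.25 to 1.30 in the 2 vehicle tumours of 48 h and 1.60 to 1.87 in the 6 of 4 h and 16 h. The part of this ratio in the results was not tested.

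Resistant tumours at 160 mg/kg/day differed from vehicle tumours at 377 of 45037 probe sets (0.837%), of which 196 (0.435%) were higher and 181 (0.402%) lower (limma on log2 of signal + 4, adjusted p below 0.05). A difference of at least 2-fold was found for 155 (0.344%) of the higher and 97 (0.215%) of the lower ones. The median log2 difference was 1.36 among the higher (range 0.44 to 7.27) and -1.03 among the lower (range -2.98 to -0.54), beside 0.04 over all probe sets. At an unadjusted p below 0.05 the count was 6257 (13.9%). RNA came from pieces of whole tumour, which also hold cells of the mouse host, so a different number of cells of a type and a different amount of RNA per cell cannot be told apart here. The array-wide scale affects the balance: when each array was centred on its median, the median of all probe sets shifted to -0.13 and 550 passed, 136 higher and 414 lower, so that 24.7% of the calls were higher in place of 52%.

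The 2 directions sat at different levels of signal. Among probe sets with a mean below 20 over the 11 arrays, 31 of 20741 (0.149%) were higher and 5 (0.0241%) were lower. Between 20 and 100 the counts were 68 (0.656%) and 33 (0.318%) of 10367. Between 100 and 1000 they were 85 (0.73%) and 124 (1.07%) of 11637, and at 1000 or more 12 (0.524%) and 19 (0.829%) of 2292. Of the higher probe sets, 53 had a vehicle mean below 20, where a probe set is close to the background of the array, and 68 had one of at least 100. Of the lower ones, 5 and 150 did.

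**Figure D1:**
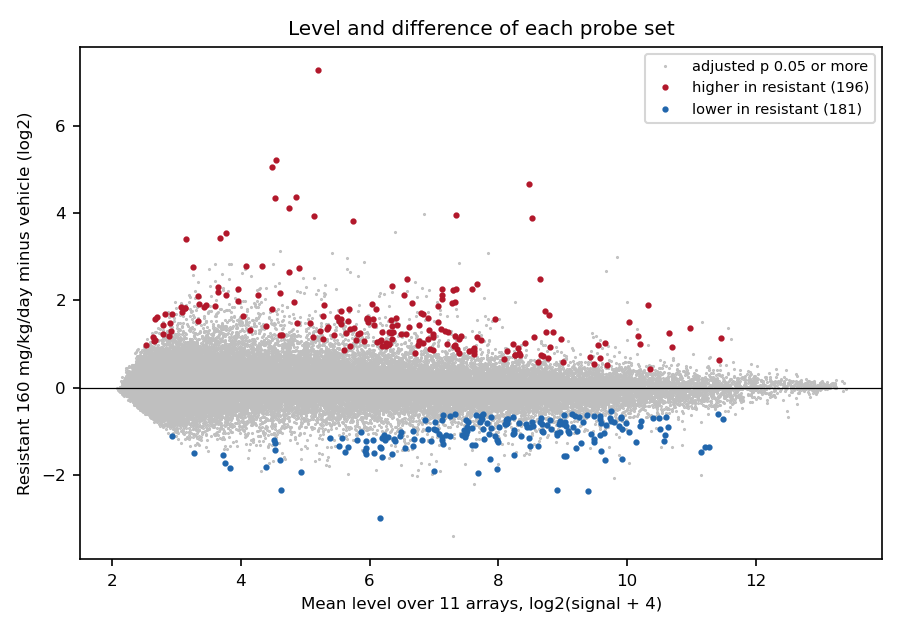
Difference against level for 45037 probe sets. The horizontal axis is the mean log2(signal + 4) over 11 arrays, the vertical axis the log2 difference of 3 resistant tumours at 160 mg/kg/day minus 8 vehicle tumours, and coloured points are the 196 higher and 181 lower probe sets with an adjusted p below 0.05. The largest differences are upward and reach 7.27, and most of the lower probe sets lie to the right of the dimmest ones.

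The count leaned on single tumours and on the vehicle tumours chosen. It was 1028 without resistant tumour 1 and 207 without resistant tumour 2, 150, 134 and 233 without vehicle tumours 1, 2 and 3 of 4 h, 146 and 159 without vehicle tumours 2 and 3 of 16 h, and 618 without vehicle tumour 1 of 48 h. The count stayed nearer to 377 without resistant tumour 3 (279), vehicle tumour 1 of 16 h (357) or vehicle tumour 3 of 48 h (388). With the 4 h and 16 h vehicle tumours alone it was 1389, which held 376 of the 377, while against single vehicle times it was 53 (0.118%) for 4 h, 2 (0.00444%) for 16 h and 3 (0.00666%) for 48 h.

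The 377 were then read on every array, relative to the vehicle mean. The median of the 196 higher probe sets was 1.11, 1.51 and 1.34 on the log2 scale in resistant tumours 1, 2 and 3, against -0.19 to 0.31 in single vehicle tumours set against the other 7. The median of the 181 lower ones was -0.83, -1.06 and -1.07 in the resistant tumours, against -0.19 to 0.09 in the vehicle tumours. These values chose the probe sets and are a description. Both vehicle tumours of 48 h leaned toward the resistant side: the medians of the higher set were 0.31 and 0.12 in them, and those of the lower set -0.19 and -0.11. All 196 and all 181 kept their sign against the mean of each vehicle time. For 184 of the 196 and 163 of the 181 this was fixed in advance, as their resistant and vehicle values did not overlap. The median of the 196 was 1.41 against 4 h, 1.47 against 16 h and 1.15 against 48 h, and that of the 181 was -1.04, -1.05 and -0.89.

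Arrays that played no role in the choice gave levels for the same probe sets, with the vehicle mean shared by all of them. In resistant tumours at 20 mg/kg/day the medians of the 196 were 1.10 and 1.03, and those of the 181 were -0.58 and -0.76. In sensitive tumours given LDE225 for 48 h they were 0.74 and 0.79 for the higher set and -0.70 and -0.68 for the lower one. At 16 h of the drug they lay between 0.08 and 0.27 and between -0.05 and 0.04, and at 4 h between -0.05 and 0.02 and between -0.09 and 0.00. The medians on the resistant arrays at 20 mg/kg/day thus stood farther from vehicle than those of sensitive tumours at 4 h and 16 h. The arrays of 48 h and of resistant tumours also share the lower actin ratio, whose part was not tested.

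The 2 resistant groups were compared directly in a model of all 21 arrays. It gives all groups 1 shared variance per probe set, although the tumours at 160 mg/kg/day were more spread. Among probe sets with a mean signal of at least 100, their median SD was 0.27. It was 0.11 at 20 mg/kg/day, and 0.13 and 0.12 in sensitive tumours at 16 h and 48 h of LDE225. The counts and p-values of these direct tests, here and for single probe sets below, can therefore be too favourable. At 190 probe sets (0.422%) the level at 160 differed from that at 20 mg/kg/day, 23 of them upward and 167 downward at 160 (limma, adjusted p below 0.05). Of the 196 probe sets above vehicle, 6 were higher and 5 lower at 160 in this test. Of the 181 below vehicle, 15 were lower and 0 higher at 160 by limma, with 9 (4.97%) higher at an unadjusted p below 0.05, where 4.14% of all probe sets were. Against the mean of the 16 h and 48 h groups of sensitive tumours under LDE225, 8169 probe sets differed (18.1%, limma, adjusted p below 0.05). Of these, 3854 were higher and 4315 lower in resistant tumours. They included 112 of the 196 as higher and 15 as lower, and 105 of the 181 as lower and 12 as higher. The choice of the 377 used the same resistant arrays, which favours differences in their own direction.

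Of the 377 probe sets, 184 of the higher (0.409% of all) and 163 of the lower (0.362%) had no overlap between the 3 resistant and the 8 vehicle values. Over all probe sets, whether or not they passed the test, 973 (2.16%) lay higher without overlap and 674 (1.5%) lower, together 1647 (3.66%). A bright subset of the 377, with no overlap and a mean signal of at least 100 in the higher group, numbered 130 higher and 134 lower. The 12 largest rises among them ran from 2.50 to 7.27 on the log2 scale, and in 8 of the 12 the vehicle mean was below 20. The 12 largest falls ran from -2.98 to -1.52. Resistant tumour 2 was the highest tumour in 8 of these 12 rises and the lowest in 8 of these 12 falls, and tumour 3 was the lowest in the other 4 falls.

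The largest rise was that of 1454660_at. Its signal was 3268.1, 293.6 and 3036.9 in resistant tumours 1, 2 and 3, against a lowest value of 0.5, a median of 5.35 and a highest value of 12.5 in the 8 vehicle tumours. Tumours 1 and 3 stood together and tumour 2 far below them, and the groups did not overlap. The mean was 2199.5 ± 1655 (SD, n = 3) in resistant and 5.91 ± 3.69 (n = 8) in vehicle tumours, and the log2 difference was 7.27 (limma, standard error 0.58, adjusted p = 4.85e-05). At 20 mg/kg/day it was split, with 2039.5 in resistant tumour 1 and 5.2 in tumour 2. In sensitive tumours under LDE225 it stayed between 0.3 and 12.8. The difference of the 160 from the 20 mg/kg/day tumours was 3.39 (standard error 1.35) and did not pass (limma, adjusted p = 0.333), while that from sensitive tumours given LDE225 (16 h and 48 h) was 7.20 (limma, standard error 1.09, adjusted p = 9.68e-05).

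The second largest rise of the bright subset, that of 1450813_a_at, was uneven. Its signal was 27, 1674.2 and 649.6 in resistant tumours 1, 2 and 3, against 0.5, 6.6 and 10.8 as the lowest, median and highest of the vehicle tumours. The groups did not overlap, and tumour 1 stood closest to the vehicle range. The log2 difference was 5.22 (limma, standard error 0.83, adjusted p = 0.0113), with an SD of 3.01 among the resistant and 0.68 among the vehicle tumours on that scale. It stood at 170.2 and 33.8 in resistant tumours at 20 mg/kg/day and at 83.4 and 84.4 in sensitive tumours at 48 h of LDE225, above every vehicle tumour in each case. The difference of the 160 from the 20 mg/kg/day tumours was 2.00 (standard error 1.06) and did not pass (limma, adjusted p = 0.494). That from sensitive tumours given LDE225 (16 h and 48 h) was 3.21 (limma, standard error 0.86, adjusted p = 0.0119).

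The largest fall was that of 1420799_at. Its signal was 20, 5.8 and 13.3 in resistant tumours, against 75.6, 145.1 and 168.4 as the lowest, median and highest of the vehicle tumours. All resistant values were low and lay below the lowest vehicle value. The mean was 13.0 ± 7.10 (SD, n = 3) in resistant and 127 ± 36.5 (n = 8) in vehicle tumours, a log2 difference of -2.98 (limma, standard error 0.30, adjusted p = 0.000404). In sensitive tumours it was 144.5 or more at 16 h of LDE225 and 3.4 and 14.7 at 48 h, and in resistant tumours at 20 mg/kg/day it was 33.4 and 55.8. The level at 160 was lower than at 20 mg/kg/day by a log2 difference of -1.57 (standard error 0.38), which did not pass (limma, adjusted p = 0.0776). Set against the mean of the 16 h and 48 h groups of sensitive tumours given LDE225, the log2 difference was -1.46 (limma, standard error 0.31, adjusted p = 0.00206). Only the tumours of 16 h lay above the resistant range, while those of 48 h lay within or below it.

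The second largest fall of that subset, that of 1448949_at, concerned a bright probe set. Its signal was 553.5, 127 and 112.9 in resistant tumours 1, 2 and 3, against 708.2, 1022.1 and 1422.6 as the lowest, median and highest of the vehicle tumours. Tumours 2 and 3 were far below the vehicle range and tumour 1 was just below it, by a ratio of 1.28. The log2 difference was -2.36 (limma, standard error 0.35, adjusted p = 0.00789). Sensitive tumours were low as well at 16 h of LDE225, with 92.6 to 214.8, and at 48 h, with 92.4 and 65.6, while resistant tumours at 20 mg/kg/day had 443.4 and 64.2. Neither the difference from the 20 mg/kg/day tumours, 0.23 (limma, adjusted p = 0.937), nor that from sensitive tumours given LDE225 (16 h and 48 h), 0.91 (limma, adjusted p = 0.222), passed. Set against the 2 vehicle tumours of 48 h alone, none of the 4 named probe sets passed (limma, adjusted p = 0.428 for 1454660_at and 0.998 for the others). Their log2 differences there were 8.03 for 1454660_at, 4.71 for 1450813_a_at, -2.53 for 1420799_at and -2.65 for 1448949_at.

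**Figure D2:**
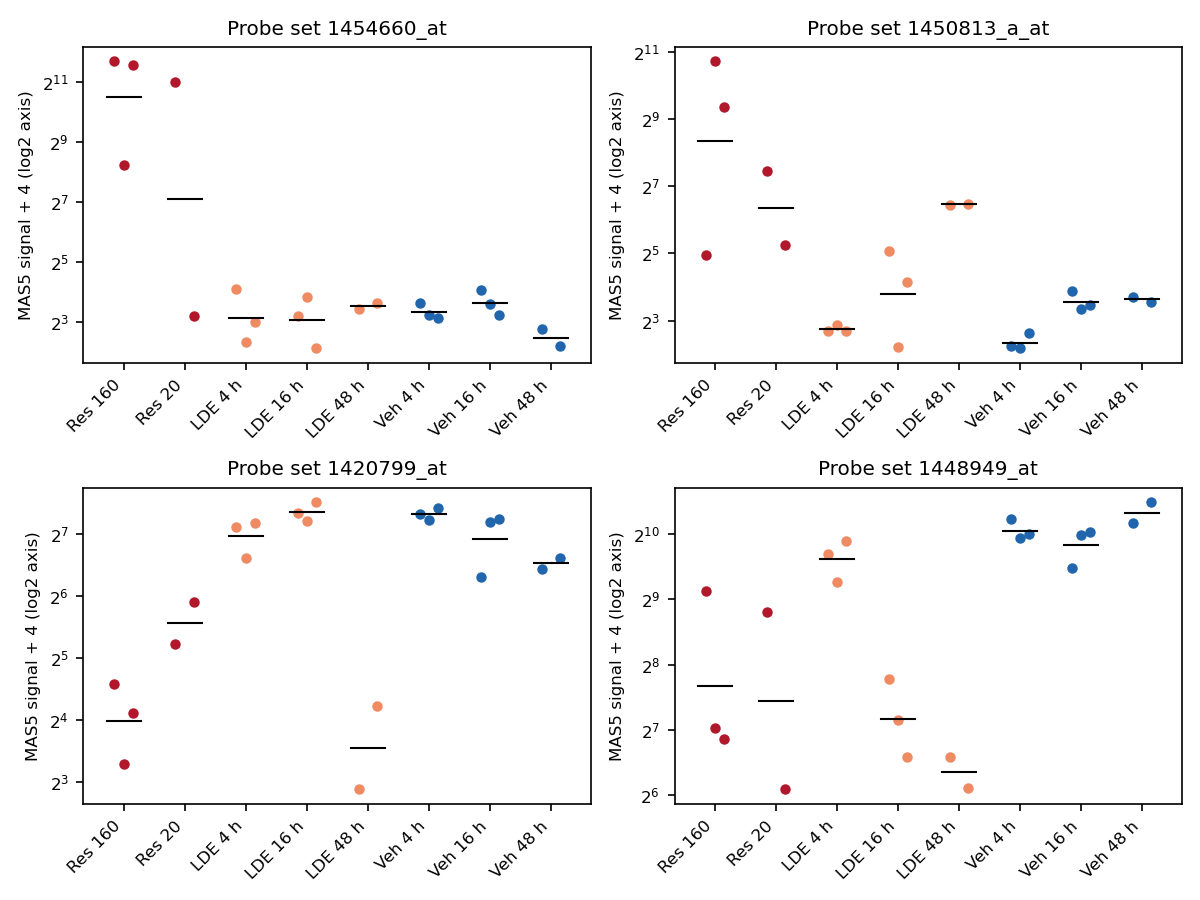
Signal of the 4 named probe sets on each of the 21 RNA arrays, on a log2 axis of signal + 4. Points are tumours, bars are group means of the log2 values, and groups run from resistant tumours at 160 and 20 mg/kg/day over sensitive tumours under LDE225 to vehicle tumours. The resistant tumours at 160 mg/kg/day lie outside the vehicle range in all 4 panels and are spread most for 1450813_a_at.

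Whether probe sets that answer the drug in sensitive tumours were displaced in resistant ones was read on sets picked from arrays outside the comparison. At 16 h of LDE225, 852 probe sets were lower and 938 higher than in vehicle tumours of 16 h by at least 2-fold (limma, adjusted p below 0.05), with median log2 changes of -1.34 and 1.27. Against the 5 vehicle tumours of 4 h and 48 h, the median of the 852 was 0.00, -0.16 and -0.11 in resistant tumours 1, 2 and 3, against -0.19 to 0.10 in single vehicle tumours. The median of the 938 was 0.09, 0.14 and -0.08, against -0.17 to 0.22. All these medians of the resistant tumours fell within the range of the vehicle tumours. Of the 852, 5 (0.587%) were lower in resistant tumours, where 0.0266% of all probe sets were, and 0 were higher (limma, adjusted p below 0.05, with 119 lower and 57 higher at an unadjusted p below 0.05). These were 14% and 6.69% of the 852, beside 4.12% and 5.93% of all probe sets. Of the 938, 0 were higher, where 0.0155% of all were, and 2 (0.213%) were lower (limma, with 114 higher and 90 lower at an unadjusted p below 0.05). These were 12.2% and 9.59% of the 938, beside 5.93% and 4.12% of all.

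The same reading with sets picked at 48 h, against the 6 vehicle tumours of 4 h and 16 h, gave a different picture for the higher set. Of 3216 probe sets that were higher at 48 h of LDE225, with a median of 1.82, the medians were 0.22, 0.39 and -0.03 in resistant tumours 1, 2 and 3, against -0.13 to 0.21 in vehicle tumours. Tumour 1 was just above the vehicle range, tumour 2 was above it and tumour 3 was within it. Among them 135 (4.2%) were higher in resistant tumours, where 1.84% of all probe sets were, and 29 (0.902%) were lower, where 1.24% were. Of 1498 that were lower at 48 h, with a median of -1.32, the medians in resistant tumours were 0.01, -0.15 and -0.09, against -0.16 to 0.07 in vehicle tumours, which is within their range. Among these 99 (6.61%) were lower, where 1.24% of all were, and 68 (4.54%) were higher, where 1.84% were. The arrays of 48 h and the resistant arrays share the lower actin ratio here too.

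The 3 resistant tumours differed from each other more than vehicle tumours of 1 time did. The median SD per probe set on the log2 scale was 0.38 among the resistant tumours (n = 3), against 0.28 among vehicle tumours of 4 h (n = 3), 0.29 at 16 h (n = 3), 0.21 at 48 h (n = 2) and 0.38 over all 8 vehicle tumours. Among the 13929 probe sets with a mean signal of at least 100 it was 0.27 among the resistant tumours, against 0.16, 0.18 and 0.13 at the vehicle times and 0.22 over all 8. An SD above 1 was found for 3.34% of these bright probe sets among the resistant tumours, against 0.38%, 1.08% and 1.64% at the vehicle times and 0.969% over all 8. The resistant SD exceeded that of the 8 vehicle tumours for 8290 of the bright probe sets (59.5%), and for 51.6% of all probe sets. Medians and shares of an SD depend on the number of tumours in the group. Only the vehicle groups of 4 h and 16 h match the resistant group in size. With 3 tumours these values are a description.

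Pairs of arrays give the same picture in counts. Among the bright probe sets, between 1047 and 1133 differed by at least 2-fold between 2 resistant tumours (3 pairs, median 1053). A resistant and a vehicle tumour differed at 554 to 1641 (24 pairs, median 1019.5), and 2 vehicle tumours of the same time at 53 to 378 (7 pairs, median 290). Vehicle tumours of different times differed at 47 to 1020 (21 pairs, median 439). The resistant tumours were not alike in this. Tumour 1 differed from the vehicle tumours at 554 to 1077 (8 pairs, median 630.5) and from the other resistant tumours at 1047 and 1053. Tumour 2 differed from vehicle at 886 to 1636 (median 1186) and tumour 3 at 624 to 1641 (median 1049), and they differed from each other at 1133. Over all probe sets Pearson's r on the log2 scale was 0.9483 to 0.9531 between resistant tumours and 0.9625 to 0.9794 between vehicle tumours of the same time.

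**Figure D3:**
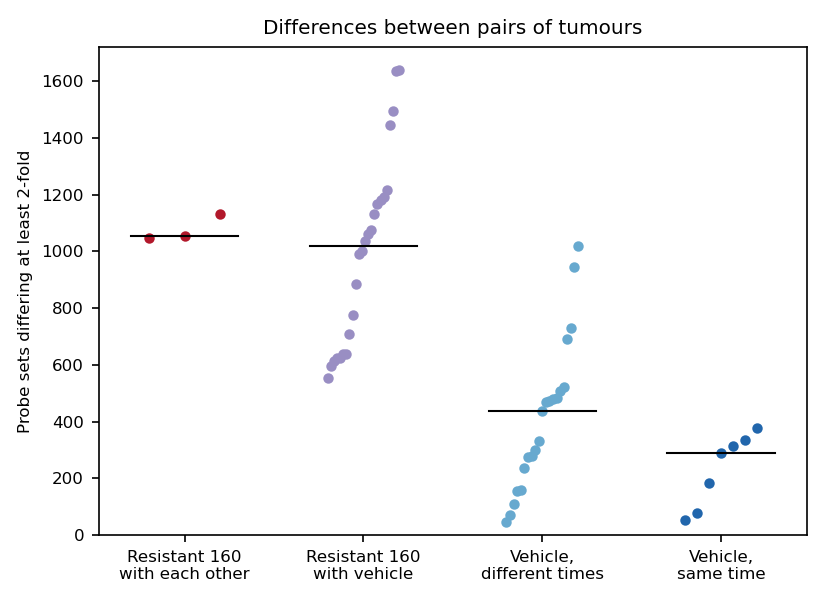
Number of bright probe sets that differ by at least 2-fold between 2 tumours. Each point is a pair of arrays, grouped into pairs of resistant tumours at 160 mg/kg/day, pairs of a resistant and a vehicle tumour, and pairs of vehicle tumours of different or the same time, and the bar is the median. The 3 resistant pairs lie between 1047 and 1133, above all 7 pairs of vehicle tumours of the same time.

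Each resistant tumour was then set against the range of the 8 vehicle tumours. Tumour 1 had 215 probe sets at least 2-fold above the highest and 119 at least 2-fold below the lowest vehicle tumour, on log2(signal + 4). Tumour 2 had 1121 above and 361 below, and tumour 3 had 315 above and 430 below. By the same measure a vehicle tumour set against the other 7 had 17 to 360 above and 34 to 225 below. Tumour 1 thus lay inside what single vehicle tumours showed in both directions, tumour 2 outside in both, and tumour 3 outside below only. A vehicle tumour is held to a range of 7 tumours and a resistant one to a range of 8, which makes the limit for the resistant tumours slightly wider. The median signal of the array was 28.8, 30.4 and 24 in resistant tumours 1, 2 and 3, against 21.6 to 28.2 in vehicle tumours. These counts were not repeated with arrays centred on their medians, and the part of the array-wide scale in them was not tested.

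Few of these excursions were shared. Exactly 1 resistant tumour was above the vehicle range by this margin at 1349 probe sets and below it at 743, exactly 2 were at 130 and 79, and all 3 were at 14 (0.0311%) and 3 (0.00666%). The 14 and the 3 all passed the test against vehicle, which used the same values that picked them and so adds no support. Tumour 2 was alone above the range, with the other resistant tumours not above it at all, at 457 probe sets, tumour 3 at 93 and tumour 1 at 78. Below the range, tumour 3 was alone at 196, tumour 2 at 111 and tumour 1 at 43.

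**Figure D4:**
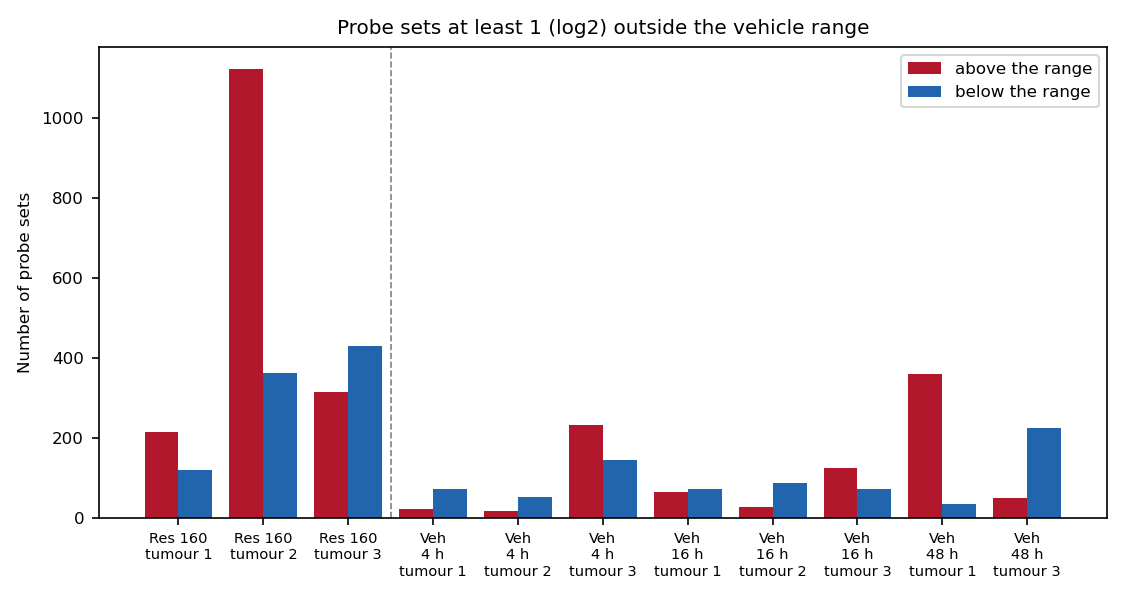
Number of probe sets at which a tumour lies at least 1 on the log2 scale outside a range. Resistant tumours at 160 mg/kg/day, left of the dashed line, are set against the range of all 8 vehicle tumours, and each vehicle tumour against the range of the other 7. Tumour 2 has the most probe sets above, 1121, and tumour 3 the most below, 430.

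The tumours also took different places within the 377. Of the 196 higher probe sets, tumour 2 was farthest from vehicle at 105, tumour 3 at 51 and tumour 1 at 40, and tumour 1 was the nearest at 95. Of the 181 lower ones, tumour 2 was farthest at 81, tumour 3 at 67 and tumour 1 at 33, and tumour 1 was the nearest at 93. Tumour 1 was thus the least displaced of the 3 in both directions.

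The widest disagreements between the 3 tumours were counted apart from the test. Among the 14198 probe sets with a mean signal of at least 100 in the resistant tumours, 184 had a range of at least 3 on the log2 scale between the lowest and the highest of the 3. Tumour 2 was the highest at 119 of them, tumour 1 at 54 and tumour 3 at 11, while tumour 1 was the lowest at 85, tumour 3 at 63 and tumour 2 at 36. Of the 184, 13 (7.07%) passed the test against vehicle, beside 0.837% of all probe sets and 1.84% of the 14198. The 184 were picked by a mean that 1 high tumour can carry, so these shares are a description. The 8 widest ranges ran from 6.07 to 7.39, with tumour 1 the highest in 4 and tumour 2 in 4.

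Control probe sets of the array name their gene, and 9 of them were tested. The transferrin receptor, which brings iron into cells and is abundant in dividing ones, has 3 such probe sets. Its 3′ probe set had 203.3, 314.4 and 218.2 in resistant tumours, against 43.3, 92.05 and 134.3 as the lowest, median and highest of the vehicle tumours, without overlap. The log2 difference was 1.47 (exact permutation test, two-sided, p = 0.0121). This is the lowest p that this test allows with 3 against 8 tumours, and adjusted over the 9 control probe sets tested it was 0.109. After this adjustment 1 probe set alone at the lowest p could not pass the threshold, so the miss decides nothing. Its 5′ probe set had 39.8, 75.5 and 57.8, against 6.4, 20.95 and 44 (exact two-sided permutation p = 0.0242, adjusted 0.109), and the groups overlapped. Its middle probe set had 45, 74.5 and 53.5, against 8.4, 18.65 and 58.8 (exact two-sided permutation p = 0.0364, adjusted 0.109), with overlap as well. Tumour 2 was the highest of the 3 in each. Resistant tumours at 20 mg/kg/day had 122.9 and 158 at the 3′ probe set, and sensitive tumours under LDE225 had 26.3 to 68.6. The 6 control probe sets of actin and of Gapdh, an enzyme of glycolysis, had exact two-sided permutation p-values of 0.0606 to 0.485, and the 3′ actin signal was 8354.3, 7765.7 and 11860 in resistant tumours, against 7175.1, 7927.55 and 10077.2 in vehicle tumours.

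DNA at this dose was measured in 1 tumour, against liver DNA on a two-colour array, and is given because its probes name their genes. The labels of that tumour contradict each other, with resistant, LDE225 and 160 mg/kg/day in some and the word vehicle in its title, and no label ties it to 1 of the 3 RNA tumours. Values are mean log2 ratios of the probes within 500 kb of a gene on build mm8, with a standard error over probes, and no spread between tumours at this dose can be given. The 3 vehicle tumours read for DNA were labelled as treated with vehicle for 26 days, unlike the vehicle tumours read for RNA. DNA arrays of 1 tumour each at 40 and 80 mg/kg/day were not used here. The library labelled 160 mg/kg/day was noisier, with an SD between neighbouring probes of 0.461, against 0.132, 0.198 and 0.176 in vehicle tumours.

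Of the Hedgehog pathway, the interval of Gli2, its main transcriptional activator, stood out. No probe is named for Gli2, which lies between Tfcp2l1 and Inhbb in gene order, and the 41 probes between these genes (mm8, chromosome 1, 120510667 to 121243134) averaged 1.20 in the 160 mg/kg/day tumour, against 0.07, 0.09 and 0.14 in vehicle tumours. That is a difference of 1.10 (standard error 0.07). Listed genes on either side of the interval were raised as well, Per2 (0.50) and Bcl2 (0.78) before it and Mcm6 (0.40) after it. Farther out, Irs1 (-0.03) and Cntn2 (-0.00) were near 0. Smo, the target of the drug, was at 0.59, against 0.56, 0.58 and 0.61, a difference of 0.01 (standard error 0.03). Ptch1 (0.02) and Gli1 (-0.01) differed as little, and Gli3 by 0.15 (standard error 0.03). Sufu differed by -0.74 (standard error 0.04), with -0.60 in the 160 mg/kg/day tumour, against 0.13, 0.14 and 0.15. Like the kinase Grk2 (-0.77) it lies on chromosome 19, whose median difference over the chromosome was -0.74.

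Genes of other pathways were read the same way. Of the 24 PI3K, AKT and mTOR genes read, 0 were above 0.5 and 3 below -0.5, beside 1.93% and 6.16% of all 25597 genes. The 3 were the catalytic subunit Pik3ca (-0.65), the transcription factor Foxo1 (-0.77) and the kinase Sgk1 (-0.72). Pik3ca and Foxo1 both lie on chromosome 3, whose median difference was -0.235, and Sgk1 lies on chromosome 10, with -0.186. Genes that share a chromosome need not be separate losses. On chromosome 3 every listed gene read from Stmn2 (mm8 start 8494918) to Ift80 (68980561) lay between -0.77 and -0.59. Those from Nes (88058688) on lay between -0.13 and 0.09, such as Lef1 (-0.02). The median over that chromosome thus mixes a low and an unchanged stretch. On chromosome 10, Hey2 (-0.51) and Dusp6 (-0.79) were low as well, while other listed genes were near 0, such as Gli1 (-0.01). Of 13 genes of IGF and insulin signalling and of 11 Hedgehog target genes, 0 lay beyond 0.5 in either direction. Of 18 genes of the primary cilium, where Smo acts, 1 was above 0.5, the GTPase Arl13b (0.54), and 3 were below -0.5. Among these was the transport protein Ift80 (-0.75), which lies in the low stretch of chromosome 3 with Pik3ca and Foxo1. Of 11 regulators of cell death, 2 were above 0.5 and 0 below -0.5: Bcl2, which restrains apoptosis (0.78), and Bcl2l11, which promotes it (0.50). Bcl2 lies on chromosome 1, as the Gli2 interval does. Bcl2l11 lies on chromosome 2, where every listed gene read from Bub1 (mm8 start 127492803) on lay between 0.35 and 0.56. Genes that share a chromosome need not be separate gains either.

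**Figure D5:**
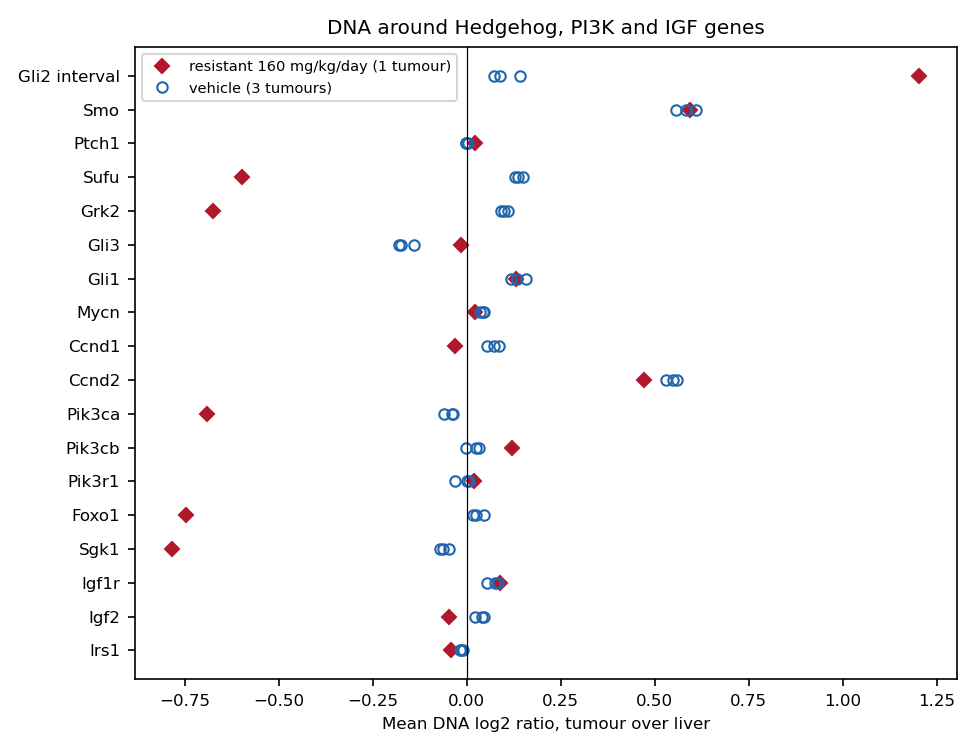
Mean DNA log2 ratio, tumour over liver, around 17 genes and in the Gli2 interval. Diamonds are the tumour labelled 160 mg/kg/day, and open circles are 3 vehicle tumours labelled as treated for 26 days. The Gli2 interval stands at 1.20 in that tumour, and Sufu, Grk2, Pik3ca, Foxo1 and Sgk1 stand below all vehicle values.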

How the data were processed

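RNA was measured on one-colour Affymetrix mouse arrays, 1 tumour per array. The deposited intensities are on a linear scale, and the submitters' processing notes name MAS5. Its version and its scaling target are not given in the sources used here. MAS5 scales arrays singly and is noisy for dim probe sets. An offset of 4 was added before log2, which understates changes of dim probe sets, and fold changes are on that scale. After 64 control probe sets were left out, 45037 of 45101 were tested with limma 3.58.1 in R 4.3.3 (3 resistant and 8 vehicle arrays as 2 groups, mean-variance trend, 9 residual degrees of freedom), two-sided, with Benjamini-Hochberg adjustment over all of them and a threshold of 0.05. Comparisons with other groups used 1 model of 8 groups over 21 arrays. Drug-answering sets were picked by a model of the 13 (16 h) or 12 (48 h) arrays outside the comparison that read them. Vehicle times were pooled, so their spread counts as vehicle spread. The labels number mice but do not describe how replicates were raised or run. The 11 arrays all held different values and correlated at 0.9794 at most. The number of arrays limits the precision.

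For DNA, scanner files of Feature Extraction 9.5.3.1 on build mm8, per the file headers, gave processed intensities, from which that program had subtracted background and removed dye bias. Tumour was in Cy5 and liver in Cy3 per the labels, each array's log2 ratios were set to an autosomal median of 0, and the log10 ratios of the authors' deposited table served as an alternative. Of 309 list genes, 284 had values, and 1 other gene of the lists is not reported here. Neighbours of Gli2 in gene order came from RefSeq's GRCm38.p6 names table, none of whose coordinates were used.

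The groups, lists and tests were chosen with earlier results of these data known. The rule for named probe sets took, among those past the threshold without overlap and with a mean of at least 100 in the higher group, the 2 largest rises and 2 largest falls, since no table used here pairs probe sets with genes. For the same reason counts of genes, gene lists and cell type markers in RNA, and RNA by DNA ratio, were planned but not computed. The drug-answering sets, the control probe sets and the DNA alternatives were added after seeing the data. Only the 2-group limma fit was tested on simulated data, in which both groups had the same spread.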

Additional observations from a re-analysis of the deposited data

Results flagged for a closer look

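The 3′ probe set of the transferrin receptor is a control of the array outside the 45037 probe sets tested. It averaged 245.3 ± 60.3 (SD, n = 3) in resistant tumours and 90.05 ± 32.5 (n = 8) in vehicle tumours, above every vehicle tumour. Among the 8 vehicle tumours, 2 control signals stood apart from the rest of their group. Vehicle tumour 3 of 4 h had the highest 3′ actin signal, 10077.2 (10080 as rounded), and vehicle tumour 3 of 48 h the highest signal of the middle transferrin receptor probe set, 58.8. That value sets the overlap of the groups for this probe set. Of 17 sets of values examined this way 2 stood out, and chance gives about 1 in 20.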

How the results depend on the processing

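The count of 377 probe sets that differed between resistant and vehicle tumours varied with the fit: 112 with no mean-variance trend, 126 with weights per group (all among the 377), 1694 with 8 groups over 21 arrays (374 of the 377 among them), 1389 against vehicle of 4 h and 16 h and 3 against vehicle of 48 h alone. Leaving out 1 tumour at a time gave 134 to 1028. The fit on 2 vehicle tumours has fewer samples, and the cause of the other shifts was not tested. It was 354 and 378 with offsets of 1 and 16, 501 with a filter at the 40th percentile, 358 after quantile normalization (44.1% higher), 550 after median centring and 407 with vehicle times as separate groups. With the replicate number as a block it was 313, of which 277 were among the 377. Whether the mouse numbers pair the samples cannot be decided here: same-numbered deviations correlated at -0.03 to 0.20, and differently numbered ones were not read. The 4 named probe sets kept their direction under all 23 alternatives and passed under 22, all but vehicle of 48 h alone. They were picked on the same arrays for passing without overlap, so this was largely fixed in advance and adds no support. The median SD among resistant tumours was 0.241 with an offset of 16, which compresses dim probe sets, against 0.18, 0.193 and 0.142 at the vehicle times. The mean of the 3 tumour medians of drug-raised probe sets was 0.05 when picked at 16 h, 0.20 when picked at 48 h and -0.01 after quantile normalization. The largest shift among 40 alternative DNA values of 20 genes was 0.12, and with windows of 250 kb Gli1 moved to 0.01, Igf1r to -0.01 and Irs1 to 0.03, in each case across 0. The alternatives on 1 probe set per gene were not run, as probe sets could not be named. Dim probe sets limit what can be read: signals under the offset have little order.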
